A study of Mus musculus with 32 samples.

Results

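The 16 liver samples taken before partial hepatectomy (PH), of 32 in the series, were used to ask whether the expression change that came with Fc-GLP-1, a long-acting GLP-1 receptor agonist, differed between mice fed a chow diet and mice fed a methionine/choline-deficient (MCD) diet. They were chosen by their labels alone, as all arrays of the 4 groups before PH. All were from male C57/BL6 mice, 8 weeks old when the diets began. C mice received chow and MCD mice the MCD diet for 3 weeks, both with vehicle injections. Mice of the C+Fc-GLP-1 group and of the M+Fc-GLP-1 group received the same diets for the same 3 weeks and Fc-GLP-1 every 2 days during the last 2 weeks, with 4 arrays in each of the 4 groups. The quantity followed throughout is the interaction, (M+Fc-GLP-1 minus MCD) minus (C+Fc-GLP-1 minus C), on the log2 scale. A positive interaction means that the difference with the drug was more positive on MCD than on chow, and the same number is the diet difference under the drug minus the diet difference without it. The other 16 arrays were of the liver regrown for 2 weeks once PH had removed 70%, and they serve here for the spread and for the same contrast at that time. Parts of the labels and the paper name the drug Fc-GLP-1, whereas other label fields give an agent that activates the glucagon receptor as well, at 4.4 mg/kg/day, and the array values cannot settle which was given. The MCD diet models the steatosis and inflammation of fatty liver disease without obesity. Nothing in the labels says whether the replicates came from separate cages or litters, so p-values measure the spread between these samples.

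GLP-1 is a gut hormone that raises glucose-dependent insulin secretion and lowers food intake. The paper describes reports on whether hepatocytes express its receptor as conflicting. Choline and methionine are needed to make phosphatidylcholine, the main phospholipid of secreted lipoproteins, and without them triglyceride stays in hepatocytes and resident macrophages, called Kupffer cells, are joined by inflammatory cells. In the fed liver, insulin acts through SREBP factors to switch on genes of fatty acid and cholesterol synthesis, whereas in fasting PPAR alpha switches on genes of fatty acid oxidation.

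Expression was given as log2 of the background-corrected signal minus the 75th percentile of each array, so that a value of 0 is the 75th percentile of all probes. The share of probes well above background was 36.3% to 69.2% by array (median 49.8%), and the 75th percentile lay between 181 and 469 units of intensity. It was highest in MCD mice, at 367 to 469, against 181 to 344 in C, 185 to 215 in C+Fc-GLP-1 and 226 to 288 in M+Fc-GLP-1 mice. The arrays of C and MCD mice shared a slide and those of the treated mice shared another, each diet in a row of its own. A slide difference that adds the same amount to both diets cancels in the interaction, but each difference with the drug on its own cannot be told apart from the slide. The hepatocyte genes Alb, Apoa1, Ttr, Trf and Fgb stood at or above the 98.0 percentile of tested genes on every array, which fits the labelled tissue. In whole liver, fewer cells of a type and less RNA per cell cannot be told apart, and this holds for every cell type named here.

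The interaction passed the threshold (limma, Benjamini-Hochberg adjusted p under 0.05) for 1232 of 21073 tested genes, or 5.85% of them. It was higher for 611 genes (2.9%) and lower for 621 (2.95%), around a median of 0.09 over all tested genes. Immune genes, above all those of Kupffer cells, and genes of cholesterol and fatty acid synthesis lay on the lower side, and genes of fatty acid oxidation on the higher side. In 547 of the 1232 genes the difference with Fc-GLP-1 itself passed on MCD only, in 210 it passed on chow only, and in 17 it passed on both diets with opposite signs. No gene passed on both diets with the same sign, and 458 passed on neither. Seen by diet, 769 of the 1232 genes passed the test of MCD against C mice only, and 269 passed that of M+Fc-GLP-1 against C+Fc-GLP-1 mice only. Another 46 passed both with the same sign, 58 passed both with opposite signs, and 90 passed neither. The interaction is the difference between the drug differences on the 2 diets and, equally, between the 2 diet differences. Selection on it makes equal signs unlikely and shapes these splits, so they are not separate results. Of all tested genes, 6.75% passed for the drug on MCD and 2.3% on chow. For the diet, 25.9% passed without the drug and 10.6% under it.

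The balance of directions depends on the centring, since it sets where 0 lies. Centring each array on its median moved the interaction of every gene down, to a median of -0.53 over all tested genes, and gave 132 higher and 2733 lower genes. With the 75th percentile taken over those probes that no array had near background the split was 793 to 528, and over all non-control spots it was 756 to 540. The authors' normalized values gave 340 genes, 169 higher and 171 lower. Without MCD replicate 1 the count was 642, the lowest of the 16 counts with 1 array left out, and in a fit of only the 16 arrays before PH it was 1187, of which 869 (4.12% of tested genes) passed in both fits. Directions below are therefore read against the median of all genes. Median centring turned the medians of 9 of the 37 gene lists described below from above to below 0, namely bile acids (0.60 to -0.02), the clock (0.54 to -0.08), hepatocyte identity (0.41 to -0.21), sex-dependent genes (0.34 to -0.27), the growth hormone axis (0.33 to -0.28), glucose and insulin signalling (0.26 to -0.35), amino acid catabolism (0.20 to -0.41), complement and coagulation (0.20 to -0.42) and progenitors (0.07 to -0.55). The median of all tested genes moved by the same amount, from 0.09 to -0.53, so no list changed its place relative to it. The medians of the endothelial, methionine and NRF2 lists, at -0.06 to -0.03, moved to between 0 and 0.04 under the other percentiles.

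Across all tested genes the diet difference under Fc-GLP-1 (M+Fc-GLP-1 minus C+Fc-GLP-1) correlated with the diet difference without it (MCD minus C) at r = 0.414, with a slope of 0.33, between comparisons that share no array. Over the 5457 genes (25.9%) that passed in MCD against C mice, the slope was 0.388 at r = 0.616, and 2231 genes (10.6%) passed in the diet comparison under the drug, 1117 as higher (5.3%) and 1114 as lower (5.29%). The differences with the drug on the 2 diets were nearly unrelated over genes, at r = -0.116. Genes are not independent replicates, and the arrays of each diet difference share a slide. Noise in the diet difference without the drug also lowers a slope, and the 5457 genes were selected on that difference. These, a smaller spread of values on a slide and a smaller response cannot be told apart by the slope.

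**Figure D1:**
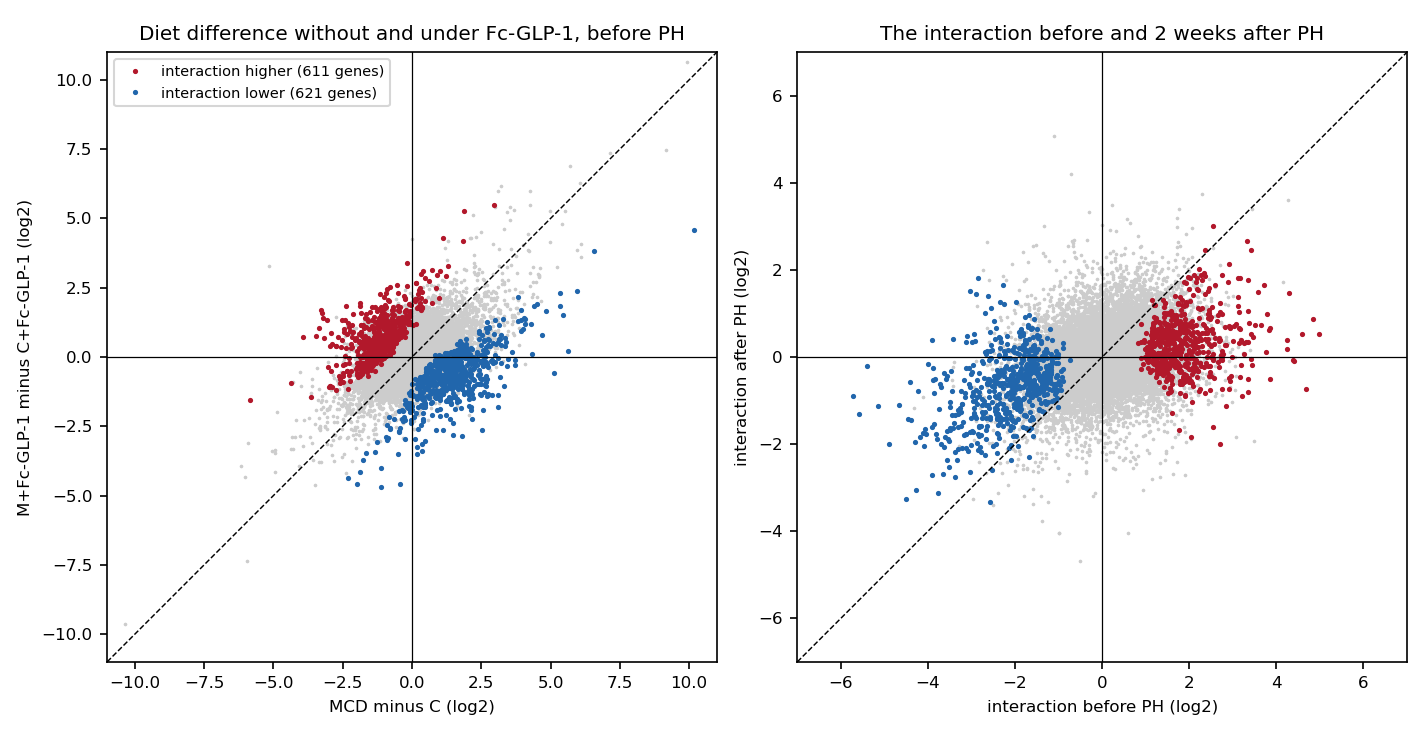
Each point is a tested gene. The left panel sets the diet difference under Fc-GLP-1 (y axis, log2) against the diet difference without it (x axis, log2), with the 611 genes of higher interaction in red above the dashed line of equal differences and the 621 genes of lower interaction in blue below it. The right panel sets the interaction 2 weeks after PH (y axis, log2) against the interaction before PH (x axis, log2) in the same colours, where most blue points lie below 0 on both axes but nearer to 0 after PH.

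Kupffer cell and macrophage genes stood lowest of the 37 gene lists. Of 22 tested genes, 10 had a lower interaction (45.5%) and 0 a higher one, and the list's median was -2.27 against 0.09 for all tested genes. The median difference with the drug was 0.47 on chow and -1.61 on MCD. Folr2, a folate receptor of resident macrophages (its probe lies at chr7:108988771-108988830 of mm9), showed the pattern. Folr2 read 0.88, 1.36, 1.13 and 0.92 in C mice, 2.9, 0.88, 2.31 and 2.26 in MCD mice, 0.67, 2.64, 0.63 and 1.47 in C+Fc-GLP-1 mice, and -0.66, 0.04, -1.38 and -1.13 in M+Fc-GLP-1 mice. The M+Fc-GLP-1 arrays lay below all arrays of the other groups. Its interaction was -3.15 (SE 0.62, adjusted p = 0.00537, limma). Clec4f, a lectin that in mice marks Kupffer cells (chr6:83595281-83595339 of mm9), read 3.25 to 4.38 in C, 4.54 to 5.70 in MCD, 3.79 to 4.72 in C+Fc-GLP-1 and 2.59 to 3.95 in M+Fc-GLP-1 mice. The MCD arrays lay above all C and all M+Fc-GLP-1 arrays, and the interaction was -2.45 (SE 0.51, adjusted p = 0.0068).

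The other 8 called members of that list were the scavenger receptor Msr1 at -3.32, the complement subunits C1qa and C1qb at -3.25 and -2.38, Lyz2 (lysozyme) at -3.02, the pore-forming Mpeg1 at -2.73, the complement receptor Vsig4 at -2.66, Cd5l, secreted by tissue macrophages, at -2.30 and Csf1r, the receptor for macrophage growth factor, at -2.08. All 10 genes fell with Fc-GLP-1 on MCD, where 6.75% of tested genes passed and 2.99% fell. The interaction that selected the 10 genes contains this difference, so their fall on MCD is not a separate result. None of the 10 passed on chow, where 2.3% of tested genes passed, 1.21% as higher and 1.09% as lower. The mean level over the 22 genes was 1.46 to 1.98 in C, 2.43 to 3.55 in MCD, 2.05 to 2.70 in C+Fc-GLP-1 and 1.29 to 2.12 in M+Fc-GLP-1 mice, so the M+Fc-GLP-1 range overlapped the C range and lay below the MCD range. The count of 10 became 6 with the authors' values, 15 with median centring and 6 without MCD replicate 1.

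Of 25 tested chemokine and receptor genes 4 were lower (16%) and 0 higher, with a median of -2.09. The values of Ccl2 were -0.8, -0.55, -0.39 and -0.45 in C mice, 1.94, 2.13, 1.19 and 2.79 in MCD mice, 2.17, 2.63, 0.3 and 2.07 in C+Fc-GLP-1 mice, and -0.6, 0.08, 0.12 and -0.05 in M+Fc-GLP-1 mice. MCD and C+Fc-GLP-1 arrays lay above all C and all M+Fc-GLP-1 arrays. Ccl2, the monocyte attractant also called MCP-1, had an interaction of -4.47 (SE 1.21, adjusted p = 0.0307). Neither its difference with the drug on chow (2.34, adjusted p = 0.133) nor that on MCD (-2.13, adjusted p = 0.127) passed alone, although the interaction did. Ccl7, from the same gene cluster, and Ccl24, an eosinophil attractant, had interactions of -4.39 and -2.95. Ccl7 read -6.05 and -5.78 in C replicates 1 and 4. Both values lay below the lowest signal well above background on those arrays (-4.95 and -3.94), so the size for Ccl7 is uncertain.

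Recruited and lipid-associated macrophages were represented by 24 tested genes, of which 4 were lower (16.7%), with a median of -1.85. These were Ccl2, Chil3 (the chitinase-like protein Ym1, -4.23), Clec7a (the glucan receptor Dectin-1, -2.98) and Fabp5 (-2.06). Fabp5, a fatty acid binding protein found in many cells, did not follow the macrophage pattern. It read 4.84 to 6.71 in C, 3.16 to 3.76 in MCD, 7.03 to 8.47 in C+Fc-GLP-1 and 3.1 to 4.1 in M+Fc-GLP-1 mice, so that it rose with the drug on chow (2.24, adjusted p = 0.00219) and did not pass on MCD (0.18, adjusted p = 0.813). The count of 4 was 0 without C replicate 1, 1 without MCD replicate 1 or 4, C+Fc-GLP-1 replicate 2 or 4 or M+Fc-GLP-1 replicate 1, 2 without any of 8 further arrays, and 12 in the fit of 16 arrays. For the chemokines it was 0 with the authors' values, 1 without MCD replicate 1, 2 without C replicate 1, MCD replicate 4, C+Fc-GLP-1 replicate 2 or M+Fc-GLP-1 replicate 1, and 11 in the fit of 16 arrays.

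Interleukin 1 beta, the inflammasome product Il1b, was lowest in M+Fc-GLP-1 mice. Il1b read -1.1, -1.42, -1.05 and -1.15 in C mice, -0.2, -0.99, -0.07 and -0.01 in MCD mice, -0.43, 0.41, -0.9 and -0.67 in C+Fc-GLP-1 mice, and -3.18, -2.94, -3.55 and -2.39 in M+Fc-GLP-1 mice. Its M+Fc-GLP-1 arrays lay below every other array, and the probe (chr2:129190347-129190406 of mm9) was well above background on 2 of those 4. The interaction was -3.48 (SE 0.68, adjusted p = 0.00476). Of 25 tested genes of the IL-1, inflammasome and TNF list 3 were lower and 1 higher (16% in all). Tlr2, a receptor for bacterial lipopeptides, and the TNF receptor Tnfrsf1a were the other lower members, at -2.68 and -1.32. Il6ra, the interleukin 6 receptor subunit of hepatocytes, was the higher member, at 1.74. The 4 members became 2 without any of C replicate 1, MCD replicates 1 and 3, C+Fc-GLP-1 replicate 2, and M+Fc-GLP-1 replicates 1 and 3.

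All 16 tested genes of MHC class II antigen presentation had a negative interaction, 5 of them passed (31.2%), and the median was -1.94. H2-Ab1, a class II beta chain, read 3.40 to 4.96 in C, 5.37 to 6.02 in MCD, 4.49 to 5.29 in C+Fc-GLP-1 and 3.32 to 5.14 in M+Fc-GLP-1 mice, and only the MCD arrays lay apart from the others. H2-Aa, the partner alpha chain (-2.60), H2-DMb1, which loads peptides (-2.57), Ctss, the protease cathepsin S (-2.93), and Cd83, a marker of mature dendritic cells (-3.45), were the other members that passed. The authors' values left 1 of the 5, median centring called 13, and leaving out MCD replicate 1, MCD replicate 3 or M+Fc-GLP-1 replicate 3 left 2, and C replicate 1 or C+Fc-GLP-1 replicate 2 left 3.

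Lcn2, lipocalin 2, an iron-siderophore binding protein of neutrophils and of the acute phase liver, had the most negative interaction of the genes ranked here. The values of Lcn2 were 1.81, 2.46, 2.33 and 2.61 in C mice, 8.51, 5.82, 7.93 and 7.51 in MCD mice, 3.83, 4.79, 2.48 and 4.17 in C+Fc-GLP-1 mice, and 3.82, 3.41, 2.89 and 2.85 in M+Fc-GLP-1 mice. All MCD arrays lay above all arrays of the other groups, and the 2 groups given Fc-GLP-1 overlapped. The diet difference was 5.14 (SE 0.87) without Fc-GLP-1 and -0.58 (SE 0.87) with it, and the interaction was -5.71 (SE 1.23, adjusted p = 0.00876). Its probe lies at chr2:32240199-32240258 of mm9. The same gene is a member of the neutrophil list and of the acute phase list.

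Neutrophil genes gave 5 lower of 24 tested (20.8%) and 0 higher, with a median of -0.99. For S100a8, the 4 groups gave -3.06, -2.04, -2.95 and -2.17 in C mice, 0.92, -0.57, 0.26 and 1.62 in MCD mice, -1.2, 0.35, -2.44 and -1.14 in C+Fc-GLP-1 mice, and -3.86, -2.05, -2.65 and -1.4 in M+Fc-GLP-1 mice. The MCD arrays stood above all C and all M+Fc-GLP-1 arrays. S100a8 and its partner S100a9, which form calprotectin, had interactions of -4.50 and -3.38, and the formyl peptide receptor Fpr1 had one of -2.43. Chil3, named above, and Lcn2 completed the 5. The median of the list turned to 0.38 when only probes well above background on all 16 arrays were used, which kept fewer members, the count was 3 without MCD replicate 1, and Ly6g, a neutrophil surface protein, had an interaction of 0.67 (adjusted p = 0.319).

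Among acute phase proteins of hepatocytes 6 of 27 were lower (22.2%), with a median of -0.19. Saa1 read 5.66, 6.05, 4.98 and 6.18 in C mice, 6.14, 5.08, 6.63 and 5.69 in MCD mice, 7.12, 8.06, 6.37 and 7.21 in C+Fc-GLP-1 mice, and 3.74, 4.67, 2.99 and 3.37 in M+Fc-GLP-1 mice. The M+Fc-GLP-1 arrays lay below all others, and the C+Fc-GLP-1 arrays lay above all C arrays but overlapped the MCD arrays. Saa1, serum amyloid A, thus differed from Lcn2, since C and MCD arrays overlapped and the diet difference without the drug was 0.17 (adjusted p = 0.874), against -3.50 under it. Its interaction was -3.67 (SE 0.90, adjusted p = 0.0182), and its neighbour Saa2 had one of -3.76. Apcs, serum amyloid P, was high on MCD with or without the drug (5.87 to 7.32) and rose with the drug on chow from 2.34 to 3.29 in C to 4.08 to 4.67 in C+Fc-GLP-1 mice, with an interaction of -1.66. Orm2 (orosomucoid) and Steap4 (a metalloreductase) were the other members, at -1.81 and -2.44. The count fell to 2 without MCD replicate 1 or C+Fc-GLP-1 replicate 2, and to 3 without any of C replicate 2, MCD replicates 3 and 4, and M+Fc-GLP-1 replicates 1, 3 and 4.

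Genes of B cells and plasma cells gave 3 lower of 19 tested (15.8%) and 0 higher, with a median of -0.68, and an immunoglobulin gene outside that list ranked among the most negative of all. Igh-VJ558 read 3.33, 6.47, 3.58 and 2.96 in C mice, 7.62, 6.7, 7.4 and 7.06 in MCD mice, 4.11, 2.64, 3.76 and 3.98 in C+Fc-GLP-1 mice, and 1.61, 1.55, 1.11 and 3.07 in M+Fc-GLP-1 mice. C replicate 2 stood apart from the other C arrays, and the MCD arrays lay above all arrays of the other groups. Igh-VJ558, a heavy chain variable gene family, fell by 5.36 with Fc-GLP-1 on MCD and had an interaction of -4.90 (SE 0.79, adjusted p = 0.00185). It belongs to a multigene family, and the 6 probes with that name spanned interactions of -4.90 to -0.38. The 3 lower members of the list were Iglv1 (a lambda light chain, -4.06), Jchain, which joins IgA and IgM (-3.92), and Bank1, a B cell scaffold protein (-2.89). Bank1 was not well above background on any M+Fc-GLP-1 array, and was at least 2.07-fold lower there than in C+Fc-GLP-1 mice. These 3 calls depended on the processing. Of them 2 were left with normexp and quantile normalization, 1 with the authors' values, and 0 with only probes well above background on all 16 arrays. T and NK lymphocyte genes gave 1 lower (Thy1, -1.18) and 1 higher (Cd4, 1.82) of 26 tested (7.69%). Leaving out any of C replicate 3, MCD replicates 1, 3 and 4, C+Fc-GLP-1 replicates 1, 2 and 3 or M+Fc-GLP-1 replicate 3 left 0 lower, whereas 4 were lower without C replicate 2 and 15 with median centring, where 0 were higher, and neither passed with the authors' values. Cd4, a T cell co-receptor also made by macrophages, read 6.20 to 7.36 in C and 3.87 to 4.24 in MCD mice.

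Interferon-stimulated genes gave 4 lower of 33 tested (12.1%) and 0 higher, with a median of -1.29 and 32 of the 33 below 0. Mx1, an antiviral GTPase, read -3.84 to -2.44 in C, -1.54 to -0.83 in MCD, -1.92 to -0.81 in C+Fc-GLP-1 and -2.21 to -1.32 in M+Fc-GLP-1 mice. It rose with the drug on chow (1.82, adjusted p = 0.0123), and the interaction was -2.33 (SE 0.54, adjusted p = 0.0143). Oasl1, Oas2 and Oas1a, of the oligoadenylate synthetase family, had interactions of -2.77, -2.05 and -1.82. The count was 16 with median centring, 9 in the fit of 16 arrays, 7 without M+Fc-GLP-1 replicate 2 and 2 with the authors' values.

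**Figure D2:**
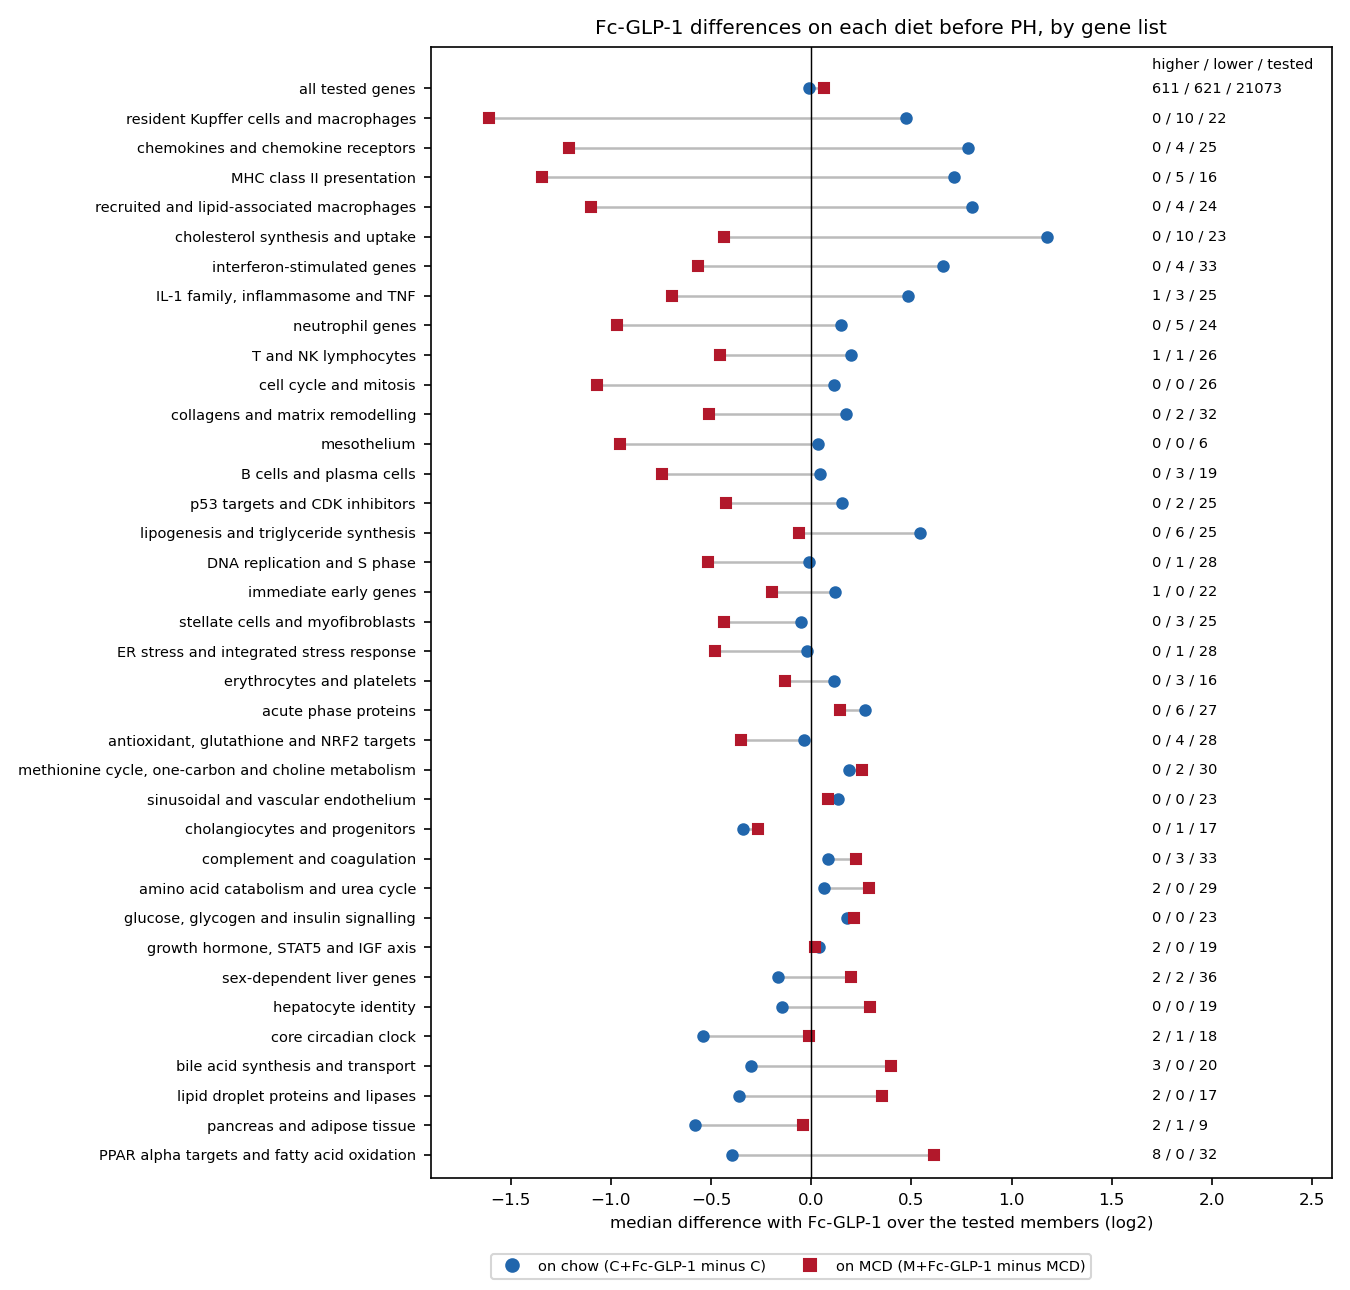
Median difference with Fc-GLP-1 (x axis, log2) over the tested members of each gene list, on chow (blue circles, C+Fc-GLP-1 minus C) and on MCD (red squares, M+Fc-GLP-1 minus MCD), and at the right the numbers of members with a higher and a lower interaction and the number tested. In the Kupffer cell list the medians are 0.47 on chow and -1.61 on MCD, in the cholesterol list 1.18 and -0.44, and in the list of PPAR alpha targets -0.39 and 0.61, against -0.01 and 0.06 over all tested genes.

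In genes of cholesterol synthesis and uptake the larger median difference with the drug was that on chow. All 23 tested members had a negative interaction, 10 of them passed (43.5%), and the median was -1.62, with medians of the drug difference of 1.18 on chow and -0.44 on MCD. Among the 10 were Hmgcs1, which makes HMG-CoA, Pmvk, Mvd and Idi1 of the mevalonate steps, Fdps, which makes farnesyl diphosphate, and Sqle, Lss, Msmo1 and Dhcr7 of the sterol steps. Their interactions ran from -2.82 (Msmo1) to -1.62 (Dhcr7).

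Hmgcs1 read 5.6, 6.71, 7.5 and 6.8 in C mice, 7.93, 6.86, 7.72 and 7.04 in MCD mice, 8.06, 7.19, 7.99 and 8.4 in C+Fc-GLP-1 mice, and 6.48, 5.88, 6.98 and 7.04 in M+Fc-GLP-1 mice. C+Fc-GLP-1 arrays were above all M+Fc-GLP-1 arrays, whereas C and MCD arrays overlapped with both. Its interaction was -2.05 (SE 0.57, adjusted p = 0.0331). The values of Pmvk were 5.54, 6.76, 6.38 and 6.26 in C mice, 6.57, 6.46, 6.87 and 6.21 in MCD mice, 7.6, 7.24, 7.38 and 7.54 in C+Fc-GLP-1 mice, and 6.05, 5.62, 6.83 and 5.96 in M+Fc-GLP-1 mice. Here all C+Fc-GLP-1 arrays stood above all arrays of the other 3 groups, and Pmvk, phosphomevalonate kinase, rose by 1.21 on chow (adjusted p = 0.0149) with an interaction of -1.62 (SE 0.37, adjusted p = 0.0125). Of these 9 genes, Pmvk and Sqle rose on chow, and none passed on MCD.

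The cholesterol result leaned on several arrays. C replicate 1 was the lowest C array for Hmgcs1, Idi1, Mvd, Sqle, Msmo1, Fdps and Pmvk. With 1 array left out the number of lower members was between 1 and 11. It was 1 without MCD replicate 1, 2 without C replicate 1, 3 without MCD replicate 3 or C+Fc-GLP-1 replicate 4, 4 without C+Fc-GLP-1 replicate 3, 5 without M+Fc-GLP-1 replicate 1 and 6 without C replicate 2 or M+Fc-GLP-1 replicate 2. The fit of 16 arrays left 4 and the authors' values 4, while the median of the list ran from -2.24 to -1.40 over the 12 other settings tried on all members.

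Promoter windows are shown for 3 of the called members because genes of this pathway are switched on together by SREBP-2, which binds near the start site beside the factor NF-Y, whose site is the CCAAT box. The 250 bases before the RefSeq start (GRCm38.p6) of Hmgcs1, Mvd and Idi1 follow, 5′ to 3′ on the strand of the gene, with each CCAAT or its reverse complement ATTGG in capitals.
Hmgcs1, chr13:119690101-119690350, plus strand: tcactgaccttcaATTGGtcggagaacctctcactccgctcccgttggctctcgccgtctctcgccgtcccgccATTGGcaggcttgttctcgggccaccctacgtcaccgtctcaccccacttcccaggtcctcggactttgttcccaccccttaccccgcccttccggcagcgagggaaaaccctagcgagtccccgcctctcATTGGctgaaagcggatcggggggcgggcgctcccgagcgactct
Mvd, chr8:122443423-122443672, minus strand: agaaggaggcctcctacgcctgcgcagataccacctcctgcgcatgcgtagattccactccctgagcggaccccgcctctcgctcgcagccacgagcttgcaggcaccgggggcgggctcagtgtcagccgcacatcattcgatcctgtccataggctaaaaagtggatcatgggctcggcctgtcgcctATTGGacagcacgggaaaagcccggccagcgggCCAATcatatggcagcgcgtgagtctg
Idi1, chr13:8885356-8885605, plus strand: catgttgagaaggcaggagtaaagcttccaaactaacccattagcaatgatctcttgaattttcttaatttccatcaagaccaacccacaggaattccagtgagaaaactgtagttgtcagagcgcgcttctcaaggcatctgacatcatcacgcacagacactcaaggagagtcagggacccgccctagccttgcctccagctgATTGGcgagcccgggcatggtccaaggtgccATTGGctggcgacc
Windows were at hand for 15 of the 23 tested members, and all 15 held CCAAT or ATTGG, among them all 7 called members with a window, whereas 37.5% of 27025 genes with a window did. Among lipogenesis genes it was in 14 of 20 windows, among PPAR alpha targets in 12 of 24. The letters CACCCCAC (or GTGGGGTG), a core of the sterol regulatory element, were in 1 of the 15 cholesterol windows, that of Hmgcs1, against 2.98% of all windows. These are matches of letters and not measured sites.

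Fatty acid and triglyceride synthesis gave 6 lower of 25 tested (24%) and 0 higher, with a median of -0.60. Fasn read 2.89, 4.48, 4.36 and 3.77 in C mice, 3.85, 4.06, 4.1 and 2.43 in MCD mice, 4.83, 4.75, 5.48 and 5.26 in C+Fc-GLP-1 mice, and 2.03, 3.11, 1.94 and 1.46 in M+Fc-GLP-1 mice. The C+Fc-GLP-1 arrays stood above all others, and 3 of the 4 M+Fc-GLP-1 arrays stood below all arrays of the other groups. Fasn, fatty acid synthase, had an interaction of -2.68 (SE 0.62, adjusted p = 0.0138). The diet difference was -0.27 (adjusted p = 0.688) without and -2.95 (adjusted p = 3.42e-05) with Fc-GLP-1. Acly, which makes cytosolic acetyl-CoA from citrate, and Acss2, which makes it from acetate, had interactions of -1.88 and -2.15 and rose with the drug on chow by 1.18 and 2.11. Gpam, the first acyltransferase of triglyceride synthesis, had one of -1.63.

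Pnpla3 and Pnpla5, lipases of one family, were the most negative of the lipogenesis list at -3.51 and -3.57, and in both the M+Fc-GLP-1 probes were not well above background on any array. Pnpla3 was at least 7.03-fold higher in C+Fc-GLP-1 than in M+Fc-GLP-1 mice (adjusted p = 0.00143), and Pnpla5 at least 14-fold (adjusted p = 1.73e-05). For Pnpla5 the MCD probes were below background too, on all 4 arrays, and the C probe was well above it on 1 of 4, so its interaction is a contrast with signals near background. Such folds set the bright group's mean against the dim group's array background, taken as the lowest signal of a probe well above background or the probe's own signal where that is higher. Srebf1, which encodes the factor of this pathway, had an interaction of 0.45 (adjusted p = 0.563). The list's count was 3 with the authors' values and 3 without MCD replicate 1, C+Fc-GLP-1 replicate 3 or M+Fc-GLP-1 replicate 4.

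Chka, a gene of the first step of phosphatidylcholine synthesis, differed with the drug in opposite directions on the 2 diets. The values of Chka were 2.49, 2.58, 2.94 and 2.83 in C mice, 2.66, 2.55, 2.26 and 2.39 in MCD mice, 3.79, 3.82, 3.54 and 4.14 in C+Fc-GLP-1 mice, and 1.5, 2.01, 1.47 and 1.3 in M+Fc-GLP-1 mice. Chka, choline kinase alpha (probe at chr19:3893508-3893567 of mm9), read higher in all C+Fc-GLP-1 arrays and lower in all M+Fc-GLP-1 arrays than in any array without the drug. It rose by 1.12 with Fc-GLP-1 on chow (adjusted p = 0.0117) and fell by 0.90 on MCD (adjusted p = 0.0207), and the interaction was -2.01 (SE 0.33, adjusted p = 0.00202). It passed in the 12 other settings and with each of the 16 arrays left out. Of those settings, the slide block is no separate check, since it left the fit of 16 arrays unchanged. Gpcpd1 read 0.11, 1.83, 1.18 and 1.75 in C mice, -0.3, 0.89, 0.2 and 0.92 in MCD mice, 0.93, -0.11, 0.52 and -0.05 in C+Fc-GLP-1 mice, and 2.99, 2.41, 3.06 and 3.01 in M+Fc-GLP-1 mice. Gpcpd1, which releases choline-containing fragments from glycerophosphocholine, showed the opposite order, with all M+Fc-GLP-1 arrays above all others. Its interaction was 3.33 (SE 0.60, adjusted p = 0.00344). Within the list of methionine, one-carbon and choline genes Chka and Mthfd2 (a mitochondrial folate enzyme, -2.51) were the 2 lower members of 30 tested (6.67%), and none was higher, so the list as a whole stood near the background of 5.85%. Leaving out C replicate 1, MCD replicate 1 or 2, C+Fc-GLP-1 replicate 2 or 3, or M+Fc-GLP-1 replicate 1, 3 or 4 left 1 of the 2.

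Fatty acid oxidation and other PPAR alpha targets gave 8 higher of 32 tested (25%) and 0 lower, with a median of 0.94 and 28 of 32 above 0. The median drug difference was -0.39 on chow and 0.61 on MCD. Acot1 read 4.96, 4.48, 4.14 and 4.44 in C mice, 0.84, 1.36, 2.38 and 1.78 in MCD mice, 3.83, 2.42, 2.59 and 3.05 in C+Fc-GLP-1 mice, and 5.41, 2.53, 4.41 and 3.01 in M+Fc-GLP-1 mice. MCD arrays lay below all arrays of the other groups. Acot1, a cytosolic acyl-CoA thioesterase, fell with the MCD diet without Fc-GLP-1 (by 2.92, adjusted p = 0.000281) and not under it (0.87, adjusted p = 0.34), and the interaction was 3.79 (SE 0.77, adjusted p = 0.00657). The values of Cyp4a10 were 7.02, 6.76, 5.78 and 5.89 in C mice, 5.72, 5.34, 6.25 and 6 in MCD mice, 5.34, 6.03, 4.66 and 5.22 in C+Fc-GLP-1 mice, and 8.92, 6.94, 7.97 and 7.87 in M+Fc-GLP-1 mice. Cyp4a10, a microsomal fatty acid omega-hydroxylase, read below all M+Fc-GLP-1 arrays in every other group but for C replicate 1, and its interaction was 3.15 (SE 0.90, adjusted p = 0.0369).

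The relatives Cyp4a31 and Cyp4a32 had interactions of 3.34 and 3.71. These 3 genes are near-identical paralogs, so signal can be shared between their probes. Acot5, a peroxisomal thioesterase, had one of 3.58, but its other probe gave 0.40. Acaa1b and Acaa1a, peroxisomal thiolases, had interactions of 2.71 and 1.11, and Hadhb, of the mitochondrial trifunctional protein, 1.35. Of the fasting genes, Cpt1a (0.82, adjusted p = 0.101), Pdk4 (1.04, adjusted p = 0.536) and Ppara itself (0.99, adjusted p = 0.168) did not pass, and Fgf21, a hepatokine of PPAR alpha, was at -1.39 (adjusted p = 0.273). The count of 8 was 5 with median centring, 3 with the authors' values and 5 without MCD replicate 1, and the median of the list ran from 0.32 to 1.10 over the other settings.

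Lipid droplet proteins and lipases gave 2 higher of 17 tested (11.8%). Plin4, a droplet coat protein, read 0.91 to 2.26 in C, 1.64 to 4.48 in MCD, -0.22 to 1.30 in C+Fc-GLP-1 and 3.72 to 5.28 in M+Fc-GLP-1 mice, and its interaction was 3.16 (SE 0.76, adjusted p = 0.0164). Pnpla2, the triglyceride lipase ATGL, was at 2.59 to 4.00 in C+Fc-GLP-1 and 4.83 to 5.53 in M+Fc-GLP-1 mice, with an interaction of 1.58 (SE 0.44, adjusted p = 0.0333). Median centring, which moved the interaction of every gene down, gave 1 higher and 4 lower. The count was 1 without any of C replicate 1, MCD replicates 1, 2 and 3, C+Fc-GLP-1 replicate 3, and M+Fc-GLP-1 replicates 1 and 4.

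**Figure D3:**
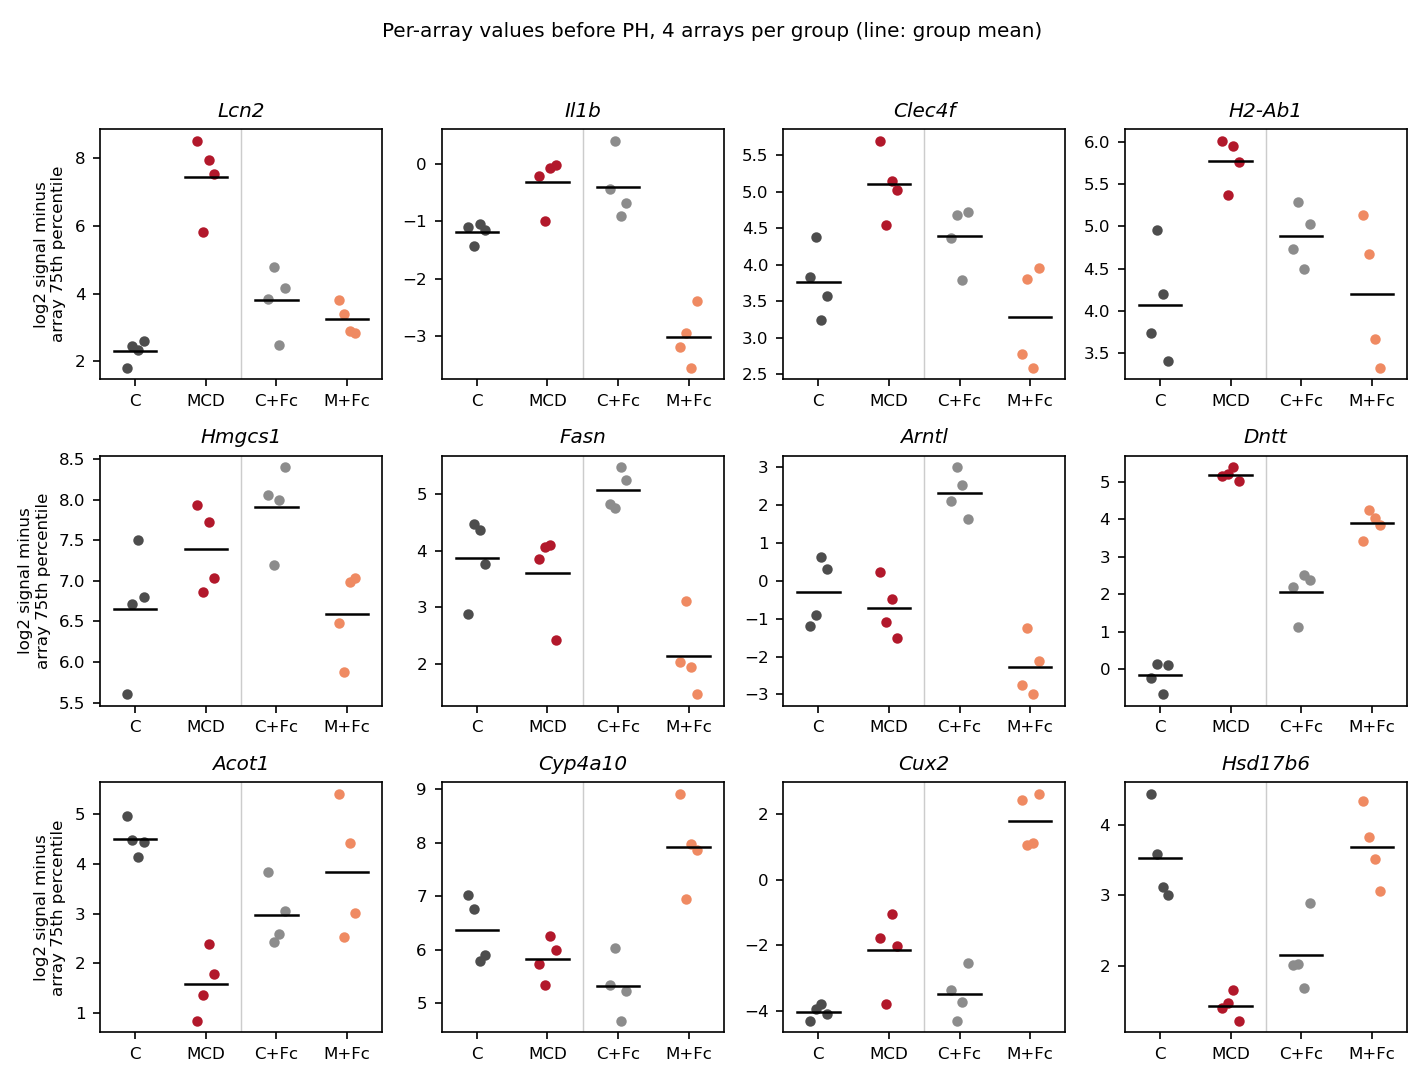
Value of each array (y axis, log2 signal minus the array's 75th percentile) for 12 genes in the 4 groups before PH (C+Fc and M+Fc are those given Fc-GLP-1), with a black line at the group mean of 4 arrays. In Lcn2 the MCD arrays at 5.82 to 8.51 stand apart, in Arntl and Fasn the C+Fc-GLP-1 arrays are highest, and in Cux2 the M+Fc-GLP-1 arrays at 1.04 to 2.61 lie above all others.

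Clock genes held 1 of the largest interactions. Arntl read -1.19, -0.9, 0.63 and 0.3 in C mice, 0.22, -1.08, -0.48 and -1.5 in MCD mice, 2.11, 2.99, 2.51 and 1.63 in C+Fc-GLP-1 mice, and -2.74, -1.26, -3 and -2.13 in M+Fc-GLP-1 mice. All C+Fc-GLP-1 arrays lay above those of the other groups, all M+Fc-GLP-1 arrays lay below the C arrays, and 3 of those 4 also lay below the MCD arrays. Arntl, the core activator BMAL1 (probe at chr7:120457261-120457320 of mm9), had an interaction of -4.17 (SE 0.91, adjusted p = 0.00967) and rose on chow by 2.6 (adjusted p = 0.0299). The values of Tef were 6.26, 5.95, 4.51 and 6.36 in C mice, 6.29, 6.85, 6.52 and 7.05 in MCD mice, 4.68, 4, 4.27 and 5.14 in C+Fc-GLP-1 mice, and 7.74, 7.03, 7.76 and 7.42 in M+Fc-GLP-1 mice. All M+Fc-GLP-1 arrays lay above all C+Fc-GLP-1 arrays. Tef and Hlf, output factors of the clock that bind D-boxes, had interactions of 2.06 and 1.92 and are the 2 higher members of 18 tested (16.7% with Arntl). Dbp, their relative, ran from 0.86 to 4.58 in C+Fc-GLP-1 and from 6.41 to 7.30 in M+Fc-GLP-1 mice but missed the threshold for the interaction (2.89, adjusted p = 0.068). The list's median was 0.54, or -0.08 under median centring, where that of all tested genes was -0.53. The hour at which the livers were taken is not given in the sources used here, and its part in these values was not tested.

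Bile acid and drug-handling genes had a median of 0.60, or -0.02 under median centring (-0.53 for all tested genes there). Of 20 tested 3 were higher (15%). These were the exporter Abcc3 (1.71, adjusted p = 0.0041) and the nuclear receptors of foreign compounds Nr1i3 (CAR, 1.84) and Nr1i2 (PXR, 1.7). Abcc3 read 5.91 to 6.75 in C, 4.67 to 5.04 in MCD, 5.07 to 5.51 in C+Fc-GLP-1 and 5.27 to 5.85 in M+Fc-GLP-1 mice. Its C arrays thus stood above the other 3 groups. Leaving out any of C replicates 1 and 2, MCD replicates 1 and 3, C+Fc-GLP-1 replicate 3 or M+Fc-GLP-1 replicate 1 left 1 of the 3.

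Genes that differ between male and female liver changed in either direction, with 2 higher and 2 lower of 36 tested (11.1%). The values of Cux2 were -4.3, -3.94, -3.77 and -4.1 in C mice, -1.79, -3.77, -1.04 and -2.02 in MCD mice, -3.37, -4.3, -3.73 and -2.54 in C+Fc-GLP-1 mice, and 2.43, 1.04, 1.1 and 2.61 in M+Fc-GLP-1 mice. Cux2, a homeobox repressor normally higher in female liver (probe at chr5:122308503-122308562 of mm9), was higher in all M+Fc-GLP-1 arrays than in any other array. It rose by 3.95 with Fc-GLP-1 on MCD (adjusted p = 2.06e-05) and did not pass on chow (0.54, adjusted p = 0.566), so that the interaction was 3.41 (SE 0.66, adjusted p = 0.00476), or 1.65 in the lower of its 2 probes. Cyp3a44 read -5.37, -5.7, -4.64 and -5.13 in C mice, 4.98, 4.2, 5.7 and 4.99 in MCD mice, -4.9, -5.13, -5.49 and -5.12 in C+Fc-GLP-1 mice, and 0.03, -2.34, 0.19 and -0.15 in M+Fc-GLP-1 mice. Cyp3a44, a cytochrome P450 that is normally female-biased, was not well above background in any mouse on chow. It was at least 786-fold higher in MCD than in C mice and at least 13.6-fold higher in M+Fc-GLP-1 than in C+Fc-GLP-1 mice, and it fell by 5.53 with the drug on MCD (adjusted p = 2.33e-06). Its interaction of -5.58 (adjusted p = 0.000934) thus rests on the arrays of MCD-fed mice. The other 2 were the flavin monooxygenases Fmo2 (2.36) and Fmo4 (-1.33).

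Hsd17b6 read 4.45, 3.59, 3.12 and 3 in C mice, 1.39, 1.47, 1.65 and 1.21 in MCD mice, 2.01, 2.02, 1.68 and 2.89 in C+Fc-GLP-1 mice, and 4.35, 3.83, 3.52 and 3.07 in M+Fc-GLP-1 mice. MCD arrays lay below all C and all M+Fc-GLP-1 arrays, and all C+Fc-GLP-1 arrays lay between them. Hsd17b6, a hydroxysteroid dehydrogenase that acts on androgens (chr10:127431580-127431639 of mm9), fell with the diet by 2.11 without Fc-GLP-1 (adjusted p = 0.00101) and rose by 1.55 under it (adjusted p = 0.0239). The interaction was 3.66 (SE 0.63, adjusted p = 0.00302). Igfbp2, a carrier of insulin-like growth factors made by hepatocytes, read 8.52 to 9.08 in M+Fc-GLP-1 mice, above all arrays of the other groups, and had an interaction of 1.73. It and Cux2 were the 2 higher members of 19 tested growth hormone axis genes (10.5%), of which 1 was left without replicate 4 of the MCD, C+Fc-GLP-1 or M+Fc-GLP-1 group and with the authors' values.

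Among the genes whose difference with Fc-GLP-1 passed on both diets with opposite signs, 5 had a higher and 12 a lower interaction. The values of Dntt were -0.22, 0.14, -0.67 and 0.11 in C mice, 5.16, 5.2, 5.39 and 5.02 in MCD mice, 2.19, 1.14, 2.52 and 2.37 in C+Fc-GLP-1 mice, and 3.43, 4.26, 4.03 and 3.86 in M+Fc-GLP-1 mice. The 4 groups did not overlap and ran, from high to low, MCD, M+Fc-GLP-1, C+Fc-GLP-1 and C. Dntt, terminal deoxynucleotidyl transferase, the template-free DNA polymerase of developing lymphocytes (chr19:41133936-41133995 of mm9), had the smallest adjusted p of all interactions (-3.51, SE 0.47, adjusted p = 0.000653). Gsdme read -2.7, -1.96, -1.78 and -2.07 in C mice, 1.55, 1.35, 1.52 and 1.52 in MCD mice, -0.87, 0.6, -0.13 and -1.19 in C+Fc-GLP-1 mice, and 0.45, -0.38, -0.09 and -0.89 in M+Fc-GLP-1 mice. Gsdme, a gasdermin that forms pores when cut by caspase-3, rose by 1.73 on chow and fell by 1.71 on MCD, with an interaction of -3.45 (SE 0.51, adjusted p = 0.000934), and its 2 treated groups overlapped. F13a1, the A subunit of coagulation factor XIII, was another of the 12. Its difference on chow of 2.7 (adjusted p = 0.0467) was taken against C arrays of which 1 of 4 was well above background, so its size there is uncertain. It was not well above background in M+Fc-GLP-1 mice, where it was at least 3.62-fold lower than in C+Fc-GLP-1 and 3.21-fold lower than in MCD mice.

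Rhbdd2 read -0.35, -0.37, -0.81 and -1.12 in C mice, -0.2, 0.85, -0.43 and -0.05 in MCD mice, -1.93, -1.99, -1.46 and -1.66 in C+Fc-GLP-1 mice, and 0.99, 1.23, 1.42 and 1.86 in M+Fc-GLP-1 mice. Rhbdd2, a rhomboid domain protein (chr5:136121818-136121877 of mm9), had the opposite order from Gsdme, falling by 1.10 on chow and rising by 1.33 on MCD, with all C+Fc-GLP-1 arrays below and all M+Fc-GLP-1 arrays above every other. Its interaction was 2.43 (SE 0.39, adjusted p = 0.00189). Tmem91, a transmembrane protein, fell by 1.62 on chow and rose by 1.14 on MCD. Its C arrays at 2.29 to 2.96 and MCD arrays at 0.27 to 1.14 lay on either side of the M+Fc-GLP-1 arrays at 1.75 to 2.27, and the interaction was 2.76 (SE 0.42, adjusted p = 0.00121). Olfr279, an olfactory receptor, had one of 2.29 but was above background on 6 of the 16 arrays.

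Several of the largest positive interactions belonged to genes known from other tissues. Lipn, a lipase of the skin barrier, had one of 4.67 (SE 1.36, adjusted p = 0.0399). The values of Lipn were -0.78, -0.4, 0.35 and 0.23 in C mice, -4.66, -4.35, -3.9 and -3.43 in MCD mice, -3.8, 0.43, -4.49 and -4.44 in C+Fc-GLP-1 mice, and -2.35, -2.5, -1.19 and -3.32 in M+Fc-GLP-1 mice. C+Fc-GLP-1 replicate 2 stood with the C arrays and apart from its group, and the interaction passed with 4 of the 16 single arrays left out. Atp12a (a proton and potassium pump, 4.38), Fcgbp (a mucus protein, 3.84), Slc6a16 (an orphan transporter, 3.37) and Cryaa (a lens crystallin, 3.36) followed, and in each the C arrays averaged higher than every other group. The fall with the MCD diet passed in all 5 genes without Fc-GLP-1, and the diet difference passed in none of them under it. Of the 1232 called genes, 768 were well above background on all 16 arrays, 367 of them higher and 401 lower, and 186 had a group with no array above background. When tested genes were ordered by mean level into 4 equal bins, 6.51% passed in the lowest bin and 3.74% in the highest, and the median interaction was 0.42 and 0.01 there. Dim genes were tested only if some group had all its arrays above background, and the part of this filter in the bins was not tested.

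Further genes past the threshold with no array above background in 1 group are given as bounds. Meig1, Lhx3 and Olfr433 had higher interactions. Meig1 was at least 5.96-fold lower in MCD than in C mice, Lhx3 at least 6.44-fold, and Olfr433 was at least 6.16-fold lower in C+Fc-GLP-1 than in C mice. Artn (artemin) was at least 5.5-fold and the heavy chain segment Ighv1-61 at least 5.24-fold higher in MCD mice than under the drug on that diet. The other strongly negative genes, Nat8f5 (an acetyltransferase-like gene, -4.29) and Mmd2 (-4.04), differed on MCD by -2.61 (adjusted p = 0.0363) and -2.13 (adjusted p = 0.09), so that only Nat8f5 passed there.

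Stress and tissue repair genes added single members. Asns, asparagine synthetase, a target of the amino acid response, read -0.93 to 0.60 in C, 5.01 to 5.71 in MCD, 0.00 to 2.51 in C+Fc-GLP-1 and 3.26 to 4.00 in M+Fc-GLP-1 mice, and its interaction was -3.02 (SE 0.62, adjusted p = 0.00659). It was the sole called member of 28 tested stress response genes (3.57%). Afp, alpha-fetoprotein, of the progenitor list, had one of -2.56 with 2.11 to 2.78 in MCD and 0.56 to 1.54 in M+Fc-GLP-1 mice. The matrix genes Sparc (-1.67) and Col3a1 (-2.48) were the 2 lower members of 32 tested (6.25%), and Col3a1 fell with the drug on MCD from 2.61 to 2.98 to 0.43 to 1.35. The NRF2 list gave 4 lower of 28 (14.3%), G6pdx (-2.24), Txnrd1 (-1.46), Gstm2 (-1.38) and Nfe2l2 itself (-1.38), and 2 of 28 without C replicate 1 or 4, MCD replicate 1 or 3 or C+Fc-GLP-1 replicate 4. Platelet genes Pf4 (-3), Ppbp (-2.78) and Treml1 (-1.66) were the 3 lower members of 16 blood cell genes (18.8%), and each rose with the drug on chow, but 1 of the 3 was left without C replicate 1 or 4, MCD replicate 1 or 4, C+Fc-GLP-1 replicate 2 or 4, or M+Fc-GLP-1 replicate 1 or 3. The complement and coagulation list gave 3 lower of 33 (9.09%), C1qa, C1qb and C8a, a subunit of the membrane attack complex (-1.80), of which 1 was left without C+Fc-GLP-1 replicate 2. Stellate cell genes gave 3 lower of 25 (12%), Myl9, a myosin light chain (-1.69), Lrat, which stores retinol (-1.45), and Thy1, and leaving out any of 12 arrays left 1 or 0 of them. Amino acid catabolism gave 2 higher of 29 (6.9%), the serine dehydratase Sds (1.93) and Aass of lysine breakdown (1.32), and leaving out any of 11 arrays (all but MCD replicate 3, C+Fc-GLP-1 replicates 2 and 4, and M+Fc-GLP-1 replicates 2 and 3) left 1 of them. The p53 target list gave 2 lower of 25 (8%), Tnfrsf10b, a death receptor (-2.42), and Ccng1, a cyclin (-1.52), of which leaving out any of 14 arrays left 1 or 0. DNA replication gave Fen1, a flap nuclease (-2.05), as the sole lower member of 28 (3.57%), and the immediate early genes gave Zfp36, which destabilises mRNA (2.25), as the sole higher member of 22 (4.55%). Of 9 genes of pancreas and adipose tissue, Plin4 and the protease Ctrb1 (2.16) were higher and the elastase Cela2a (-2.79) was lower. Cela2a was not well above background in M+Fc-GLP-1 mice, where it was at least 2.8-fold lower than in C+Fc-GLP-1 mice. With the authors' values 0 of the matrix, stellate cell and p53 genes passed, and 1 each of the NRF2, blood cell and amino acid genes. No member passed in the lists of hepatocyte identity (19 genes), sinusoidal endothelium (23), glucose and insulin signalling (23), cell cycle (26) and mesothelium (6). The cell cycle list had a median of -0.98, and its members Top2a and Mki67, which serve dividing cells, were at -2.63 (adjusted p = 0.0582) and -2.41 (adjusted p = 0.0744). Top2a was not well above background on any C or M+Fc-GLP-1 array, so its size is uncertain.

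Of a list of genes taken from the study's text, 17 were tested and 2 passed for the interaction (11.8%), Il1b and Ccl2, of which 1 was left without any of C replicate 1, MCD replicates 1 and 4, C+Fc-GLP-1 replicates 2 and 4, and M+Fc-GLP-1 replicate 1, and 0 with the authors' values. Adgre1, a macrophage surface marker, had an interaction of -2.25 (adjusted p = 0.103), Col1a1 -2.34 (adjusted p = 0.109), Gzmb -2.09 (adjusted p = 0.124) and Glp1r 1.65 (adjusted p = 0.166). The cytokine Tnf was at -1.25 (adjusted p = 0.424) and the stellate cell genes Acta2, Des and Tgfb1 lay between -0.34 and 0.31. Tnf was not well above background on any array of the groups given Fc-GLP-1, nor was Gzmb on any M+Fc-GLP-1 array. The study worked on mice of these groups, so the count is not independent evidence.

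At 2 weeks after PH the same contrast passed for 0 of 21073 genes in limma (0%), with 1877 at an unadjusted p under 0.05 and a lowest adjusted p of 0.078. It was 5 with the authors' values and with normexp and quantile normalization, and 15 without C replicate 1 after PH. The arrays after PH share no array with those before. The earlier samples were liver removed at PH, and the paper describes both times as the same groups of mice. Samples of the 2 times may thus come from the same mice, so equal signs are not independent evidence. The fit treated all arrays as independent, and pairing across the times was not tested. Later samples could come only from mice that lived through PH. The paper reports that the drug improved survival of PH, so this selection was unequal between groups. Its part in the contrast after PH, and in the comparison of the 2 times, was not tested. After PH, C and MCD mice lay on a slide each and the groups given Fc-GLP-1 shared another. The diet difference without the drug, and so the interaction, cannot be told apart from the slide there, whereas the diet difference under the drug lies within a slide. Of the 1232 genes called before PH, 921 (74.8%) had the same sign after PH, against 60.9% of all tested genes. Among lower genes it was 510 of 621 (82.1%), with a median of -2.01 before and -0.61 after PH, and among higher genes 411 of 611 (67.3%), with medians of 1.7 and 0.26. The median of the cholesterol list was -1.24 after PH, that of the Kupffer cell list -0.68, that of PPAR alpha targets 0.35 and that of interferon-stimulated genes 0.13. The difference between the interactions before and after PH passed for 0 genes (0%), with 1971 at an unadjusted p under 0.05, so a change of the interaction with time was not shown for any gene.

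**Figure D4:**
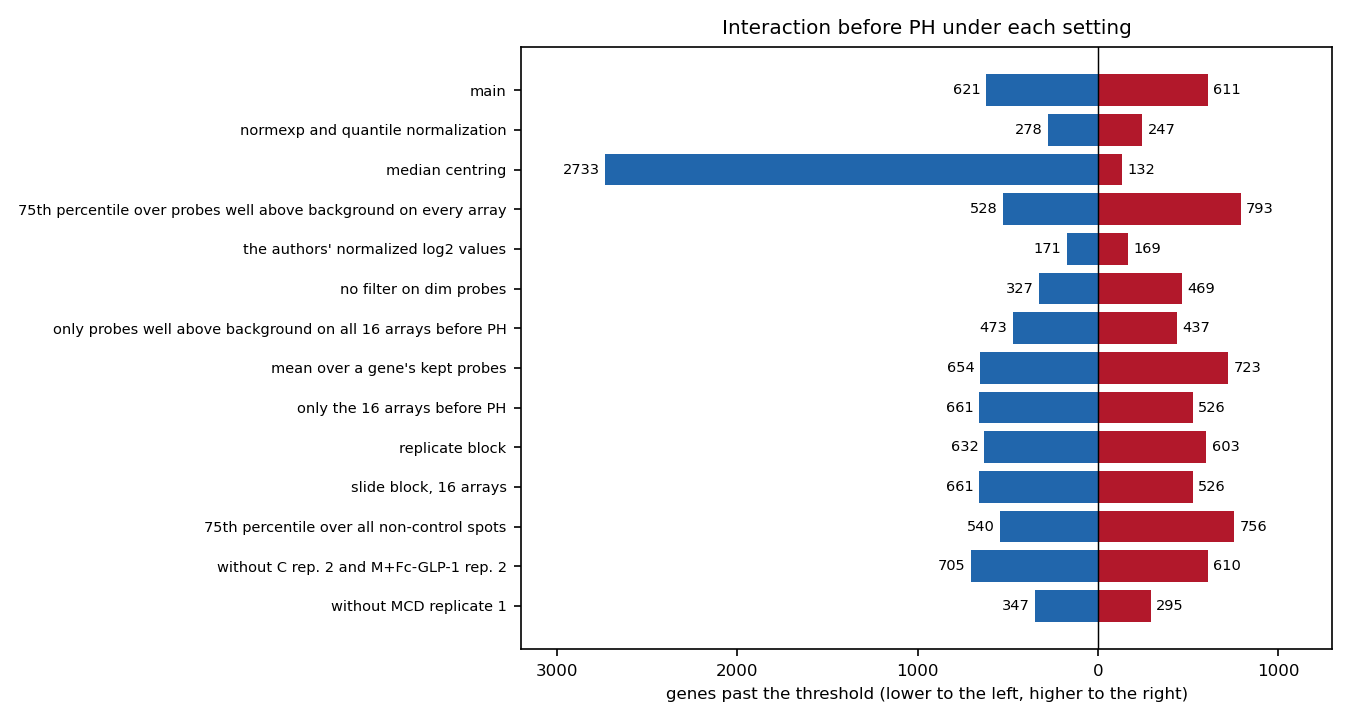
Number of genes past the threshold for the interaction before PH (x axis, lower genes to the left in blue and higher genes to the right in red) under each setting (y axis). Median centring gives 2733 lower and 132 higher genes, the authors' normalized values 171 and 169, and leaving out MCD replicate 1 gives 347 and 295, against 621 and 611 in the main analysis.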

How the data were processed

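Liver RNA was labelled with Cy3 and hybridised to 1-colour 60-mer arrays. The intensity values deposited by the authors came from the scanner software, which per the file headers corrected background and detrended within each array. A table of normalized log2 values deposited by the authors, for which limma is named, served as an alternative. Here the processed signal was averaged over the spots of each of 55681 probes (426 dropped for outlier flags), and log2 of it minus the array's 75th percentile was used. Of the 55681 probes, 27656 were named through RefSeq and the others kept the name in the files. Probes were used if 1 or more of the 8 groups had them above background throughout its 4 arrays (28937 probes). Each of 21073 genes took its brightest such probe. A single model with 8 groups was fitted to all 32 arrays (limma 3.58.1, R 4.3.3), and the interaction was a contrast of 4 of them, with Benjamini-Hochberg adjustment over all tested genes at 0.05. Every adjusted p is from this fit.

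Genes were named by rule, among those called in this fit and in a fit of the 16 arrays: the 12 largest interactions in each direction with no group wholly below background, the 3 largest in each direction with 1 such group, and the 3 largest in each direction with opposite drug differences on the 2 diets. From each of 37 gene lists up to 4 members with the smallest p were named, with members that define the list, and a list of genes taken from the study's text. Further called members of a list were named after their values were seen. Some genes that met the rule are not reported here. Members and lists were chosen with earlier results of these data known. On simulated data with 200 of 21073 genes changed, the fit recovered 61% of interactions of size 2 and 6% of size 1. The simulated noise was normal and independent between genes, without slide or array effects, and only the M+Fc-GLP-1 group was changed. Recovery in the measured data may therefore differ. Alternatives changed the background correction and normalization (normexp, offset 50, and quantile), the centring, the filter, the probes, the fit, the blocks and the arrays. Promoter windows are RefSeq GRCm38.p6, and probe positions are those of the files (mm9). The number of arrays limits the precision.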

Additional observations from a re-analysis of the deposited data

Results flagged for a closer look

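The difference with Fc-GLP-1 differed between the diets for 1232 genes by the interaction test described above. Single arrays that stood far from the other 3 of their group (Dixon's test) were found in 31 of 604 combinations of a named gene and a group, and chance gives about 1 in 20.

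In C mice these were Fdps (5.73), Fmo2 (-1.06) and Sds (7.18) in replicate 1, C1qa (2.25), Iglv1 (0.13) and Ttr (8.08) in replicate 2, and Gstm2 (5.57) and Lrat (0.76) in replicate 4. In MCD mice they were Chil3 (-1.43), Gsdme (1.35), Mpeg1 (4.55) and Vsig4 (3.48) in replicate 2, all lower than in the other MCD arrays, C8a (5.1) in replicate 3, and Fasn (2.43) and Mki67 (0.47) in replicate 4. In C+Fc-GLP-1 mice they were Dhcr7 (3.9) in replicate 1, Fgf21 (-0.77), Lipn (0.43) and Steap4 (3.68) in replicate 2, Hadhb (6.77) and Mpeg1 (4.46) in replicate 3, and Alb (10.99), Sparc (5.2) and Treml1 (1.07) in replicate 4. Among M+Fc-GLP-1 mice they were Mmp2 (-1.36) and Tmem91 (2.27) in replicate 1, and Cyp3a44 (-2.34), Dpp4 (1.74), Gpcpd1 (2.41), Plin4 (3.72) and Ppara (6.69) in replicate 2. All values are log2 signal minus the array's 75th percentile.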

How the results depend on the processing

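Among 124 named genes called for the interaction none changed sign under these alternatives, and of them 106 passed in the fit of 16 arrays, 61 with normexp and quantile normalization and 52 with the authors' values. Of the 124, 66 passed with each single array left out, and 44 passed in every other setting in which they were tested. Normexp and quantile normalization gave 525 genes for the interaction, 1457 for the diet difference under the drug, 2465 and 2670 for the drug difference on chow and on MCD, 5 for the interaction after PH and 52 distinct members of the lists (105 of 807 in the analysis above). The authors' values gave 340, 1265, 2122, 2146, 5 and 43 for the same counts. Median centring gave 2865 for the interaction, 1031 for the drug on chow and 207 list members. With no filter on dim probes 796 genes passed for the interaction, 6324 for the drug on MCD and 66 list members. Only probes well above background on all 16 arrays gave 2 genes for the interaction after PH, and the mean over a gene's probes gave 6 for the interaction before minus after PH. Fits of 16 arrays gave 305 genes for the drug on chow and 1 for the interaction after PH. The cause of these shifts was not tested.

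Leaving out 1 array gave 642 (without MCD replicate 1) to 1430 genes for the interaction, 4276 to 5560 for MCD against C, 1565 to 2363 for the diet under the drug, 233 (without C replicate 1) to 527 for the drug on chow, 547 (without MCD replicate 1) to 1671 for the drug on MCD, 0 to 15 for the interaction after PH, 0 to 5 for before minus after PH, and 55 to 109 list members. With the replicate number as a replicate block 1235 genes passed. Deviations of same-numbered arrays from different groups before PH correlated at -0.189 to 0.198 (median 0.039, 24 pairs). For arrays of different numbers it was -0.255 to 0.245 (median -0.014, 72 pairs). Among arrays of other groups, 7 of 16 arrays correlated best with one of their own number. These values do not decide whether the numbers pair the samples.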
